A study of Mus musculus with 4 samples.

Results

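The genes described here are the mouse chromatin remodelers, histone deacetylases and bromodomain genes. They are the protein-coding genes of the deposited count table whose symbols belong to the Smarc, Chd, Hdac, Arid, Mta, Mbd, Ino80 and Brd families, 64 of the 56748 genes listed, and all 64 passed edgeR's filter on low counts. They were measured by RNA-seq in E14 cells, a mouse embryonic stem cell (mESC) line, in WT cells (WT1 and WT2) and in Npac knockout cells (KO1 and KO2). The KO1 and KO2 libraries came from separate lines derived from E14 by CRISPR/Cas9 from picked colonies, the study's methods describe feeder-free culture on gelatin with serum and LIF, and all 4 libraries share this parental line. The knockout cells were electroporated with gRNA and Cas9 plasmids and selected with puromycin, and the methods describe no such step for the WT cells. No age or other added agent is given that separates the groups. No source says that WT1 and WT2 came from separate cultures, so the p-values measure the spread between these libraries, which may be technical.

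Remodelers are ATP-driven machines that slide, evict or exchange nucleosomes. In the BAF complex (mammalian SWI/SNF) the motor is Smarca4 or its paralog Smarca2, in ISWI complexes it is Smarca5 or Smarca1, in NuRD it is a Chd protein working beside Hdac1 or Hdac2, and in INO80 it is Ino80 itself. Histone deacetylases remove acetyl groups from lysines, and bromodomains bind acetylated lysines. Mouse ES cells are known for a BAF complex built around Smarca4 and Smarcc1, and NuRD with Mbd3 is needed for their exit from self-renewal.

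Npac, listed as Glyr1, was read first as a check of the labels. It had 3961 and 3115 reads in WT1 and WT2 and 744 and 888 reads in KO1 and KO2, a log2 fold change of -2.14 ± 0.23 (SE, adjusted p = 0.00174 by the quasi-likelihood test of edgeR, Benjamini-Hochberg). All 12 ES cell markers examined, among them Pou5f1, Sox2 and Nanog, stood at 10 FPKM (read counts scaled for gene length and library size) or more in every library, and 2 of them, Klf4 and Zfp42, were lower in KO cells. Fibroblast markers summed to between 10.8 and 17.7 FPKM per library, with Col3a1 and Dcn at 0 in every library and 1 of the 7, Col1a1, higher in KO cells. Endoderm, mesoderm and trophoblast markers summed to at most 4.74 FPKM with none called, and neural markers to between 24.3 and 32.8 FPKM with 1 higher (Neurod1) and 1 lower (Sox1). The part of such cells in the results was not tested. The library totals lay between 15850805 and 16965120 reads. Genes on chromosomes 8 and 11 stood higher in both KO libraries: their median log2 difference from WT was 0.52 and 0.53 on chromosome 8 and 0.51 and 0.49 on chromosome 11 (KO1 and KO2), against -0.20 to 0.00 for the other autosomes. In bulk RNA a change in the cells that make up a culture and a change of RNA per cell cannot be told apart.

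Below, a called gene is one that changed more than 1.5-fold with an adjusted p (Benjamini-Hochberg) under 0.05, and the fit and the adjustment covered all 18157 genes tested. Of the 64 genes, 6 were up-regulated in Npac KO cells (9.38%, where 11% of all genes tested were up-regulated) and 3 were down-regulated (4.69%, against 10.7% of all genes tested). Among the protein-coding genes tested, 11.5% were up-regulated and 10.2% down-regulated. The up-regulated genes were Smarca2, Hdac1, Smarca5, Smarcd2, Smarca4 and Brd7, and the down-regulated genes were Smarcad1, Smarcd3 and Hdac4. The Smarc family held 6 of these 9 calls among its 13 genes. No gene of the Arid (10 genes), Chd (9), Mbd (6), Ino80 (5) and Mta (3) families passed both thresholds, nor did the remaining 9 of 11 Hdac genes. The median log2 fold change of the 64 genes was 0.03, beside 0.00 for all genes tested. In CPM, the TMM-normalized counts scaled to library size, on which overlap between the groups is judged throughout, both KO libraries lay above both WT libraries in 20 of the genes (31.3%, against 33.2% of all genes tested) and below both in 17 (26.6%, against 32.5%). With limma on log2(FPKM + 1) in place of counts, the same 6 genes were called higher and none of the 3 lower genes was called (adjusted p between 0.052 and 0.110 by limma).

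The promoter sequences of 5 of the called Smarc genes are shown because these genes encode the motors of BAF and ISWI and the interchangeable Smarcd subunits of BAF, on which the results below turn. Each is the 250 bases before the RefSeq start in GRCm38.p6, written 5′ to 3′ on the gene's strand: Smarca4 (chr9:21615919-21616168, plus strand), Smarca5 (chr8:80739460-80739709, minus strand), Smarca2 (chr19:26604910-26605159, plus strand), Smarcd2 (chr11:106267633-106267882, minus strand) and Smarcd3 (chr5:24602003-24602252, minus strand). Capitals mark the letters GGGCGG (the GC box) and GCATGCG (an NRF1-type motif) on either strand, including their reverse complements. These motifs were chosen after the windows had been seen, and a match is a description of letters only.
Smarca4: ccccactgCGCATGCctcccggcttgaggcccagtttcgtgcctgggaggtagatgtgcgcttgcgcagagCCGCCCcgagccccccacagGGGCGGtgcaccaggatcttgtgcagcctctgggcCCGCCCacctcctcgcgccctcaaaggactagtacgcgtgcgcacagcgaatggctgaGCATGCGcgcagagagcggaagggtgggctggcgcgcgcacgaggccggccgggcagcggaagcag
Smarca5: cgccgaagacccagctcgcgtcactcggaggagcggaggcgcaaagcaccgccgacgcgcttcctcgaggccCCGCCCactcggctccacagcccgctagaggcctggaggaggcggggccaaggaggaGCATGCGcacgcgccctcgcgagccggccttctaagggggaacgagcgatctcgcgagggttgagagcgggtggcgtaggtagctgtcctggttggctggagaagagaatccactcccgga
Smarca2: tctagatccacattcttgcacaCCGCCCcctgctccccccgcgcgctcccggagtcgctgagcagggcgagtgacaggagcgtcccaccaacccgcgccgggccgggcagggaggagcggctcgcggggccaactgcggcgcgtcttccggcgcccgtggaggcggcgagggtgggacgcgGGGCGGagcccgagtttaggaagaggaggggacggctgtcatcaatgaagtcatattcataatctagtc
Smarcd2: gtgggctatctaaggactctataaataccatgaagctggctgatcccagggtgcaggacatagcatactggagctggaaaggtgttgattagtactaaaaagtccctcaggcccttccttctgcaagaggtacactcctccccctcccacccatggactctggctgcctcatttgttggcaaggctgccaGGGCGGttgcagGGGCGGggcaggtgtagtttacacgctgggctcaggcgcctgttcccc
Smarcd3: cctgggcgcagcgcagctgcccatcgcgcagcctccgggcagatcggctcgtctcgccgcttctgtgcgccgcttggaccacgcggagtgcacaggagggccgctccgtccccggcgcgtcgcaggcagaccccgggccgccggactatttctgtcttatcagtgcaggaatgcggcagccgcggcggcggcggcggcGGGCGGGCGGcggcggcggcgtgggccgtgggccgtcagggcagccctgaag
For 46 of the 64 genes, windows from the RefSeq promoter table were used, 62 in all. The remaining genes were not counted here, whether or not they have an entry. The windows of all genes were not limited in the same way, so the percentages below are descriptions of the windows used. GGGCGG was found in 45 of the 62 windows (72.6%), where 32.7% of the 32851 windows of all genes hold it. It was present in all 5 up-regulated genes with an entry (Brd7, Smarca2, Smarca4, Smarca5 and Smarcd2). Of the 3 down-regulated genes, all with an entry, Smarcd3 and Hdac4 held it and Smarcad1 did not. GCATGCG was found in 6 of the 62 windows (9.68%, against 3.02% of all windows), including those of Smarca4 and Smarca5. Other letters were also counted. CCAAT (29.03%, against 33.85%), TATAAA (8.065%, against 12.37%) and CACGTG (3.226%, against 6.021%) stood below the share of all windows. CCGGAAG stood above it (14.52%, against 6.907%). The 62 windows were rich in CpG, with a median observed-to-expected CpG ratio of 0.825 against 0.374 for all windows. Among those printed, Smarcd2 had the lowest ratio, 0.201, and Smarcd3 the highest, 1.06.

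The motor subunits of BAF were both higher in Npac KO cells. Smarca4 (Brg1), the main BAF motor of ES cells, is listed on chromosome 9 from 21527465 to 21615526. Gene positions are as deposited, their build is unsettled, and they cannot be set beside those of the promoter windows. It had 3078 and 3060 reads in WT1 and WT2 against 5167 and 5019 in KO1 and KO2. The groups did not overlap. The log2 fold change was 0.72 ± 0.19 (SE, edgeR adjusted p = 0.0311). Smarca2 (Brm; chromosome 19 from 26582450 to 26755722), the alternative motor, had 24 and 79 reads in WT1 and WT2 against 216 and 370 in KO1 and KO2. It had the largest fold change of the 64 genes, 5.74-fold, or 2.52 ± 0.51 on the log2 scale (SE, edgeR adjusted p = 0.0139). It remained a minor form: its FPKM was 0.109 and 0.314 in WT and 0.970 and 1.47 in KO cells, while that of Smarca4 was 30.9 and 26.8 in WT and 51.2 and 44.0 in KO cells. Smarca2 thus made up 0.353% and 1.16% of the summed FPKM of the pair in WT cells and 1.86% and 3.24% in KO cells. The WT libraries themselves differed in Smarca2, and its log2 fold change was 1.94 without WT1 and 3.48 without WT2, called in each case. Smarca4 was not called without KO1 (adjusted p = 0.284) or without KO2 (adjusted p = 0.125), by the same edgeR test.

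The 3 Smarcd genes encode an accessory subunit of BAF of which each complex carries 1 kind. Smarcd2 rose and Smarcd3 fell. Smarcd2 (chromosome 11 from 106154005 to 106163798) had 1077 and 1546 reads in WT1 and WT2 against 2260 and 2376 in KO1 and KO2, a log2 fold change of 0.83 ± 0.19 (SE, edgeR adjusted p = 0.0211). Smarcd3 (chromosome 5 from 24795816 to 24829409), known from heart and muscle development, had 276 and 241 reads in WT1 and WT2 against 98 and 134 in KO1 and KO2. Its log2 fold change was -1.18 ± 0.31 (SE, edgeR adjusted p = 0.0319). Smarcd1 was not called, with 2062 and 1706 reads in WT and 1817 and 1634 in KO cells, which overlap. Counted per length, Smarcd1 held 59.1% and 47.0% of the summed Smarcd FPKM in WT1 and WT2 and Smarcd2 34.7% and 47.8%. In KO1 and KO2, Smarcd2 held the larger part, 57.2% and 60.5%, and Smarcd1 41.0% and 37.1%. Smarcd3 made up 6.22% and 5.22% in WT and 1.74% and 2.39% in KO cells. With 2 libraries against 2, an exact two-sided permutation test cannot go below p = 0.333, so no test is given for shares.

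Neither Smarcd2 nor Smarcd3 was called without KO1 or without KO2 (edgeR adjusted p = 0.167 and 0.114 for Smarcd2, 0.238 and 0.127 for Smarcd3). Smarcd2 lies on chromosome 11, and with chromosome medians removed from the KO libraries its log2 fold change was 0.33 (adjusted p = 0.254 by edgeR). Smarcd3 overlaps part of Chpf2 on the opposite strand, which is listed from 24791739 to 24799554. Chpf2 had 267 and 197 reads in WT and 98 and 96 in KO cells. The use of strand in counting is not given in the sources used here, so reads from the shared stretch cannot be told apart. Their part in the Smarcd3 counts was not tested.

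The core subunits that BAF complexes share showed small differences. Smarcc1, the scaffold of the ES cell complex and the most abundant Smarc gene by FPKM, had 42.0 and 33.7 FPKM in WT1 and WT2 against 56.5 and 49.2 in KO1 and KO2. These do not overlap, but the log2 fold change of 0.49 ± 0.20 (SE) was within 1.5-fold and the adjusted p was 0.113 by edgeR. It passed both thresholds with chromosome medians removed (0.69, adjusted p = 0.0464 by edgeR). Its reads may include some of Dhx30, which overlaps it in the table only from 109946776 to 109946898. Dhx30 had 1968 and 1977 reads in WT and 3017 and 3348 in KO cells. Its paralog Smarcc2, the scaffold more typical of differentiated cells, had a log2 fold change of 0.28 ± 0.22 (SE). Smarcb1 (0.14 ± 0.17 SE) and Smarce1 (0.07 ± 0.17 SE) were within 1.5-fold of WT. Smarcal1, a helicase that anneals DNA at stalled replication forks, had a log2 fold change of -0.28 ± 0.19 (SE).

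**Figure D1:**
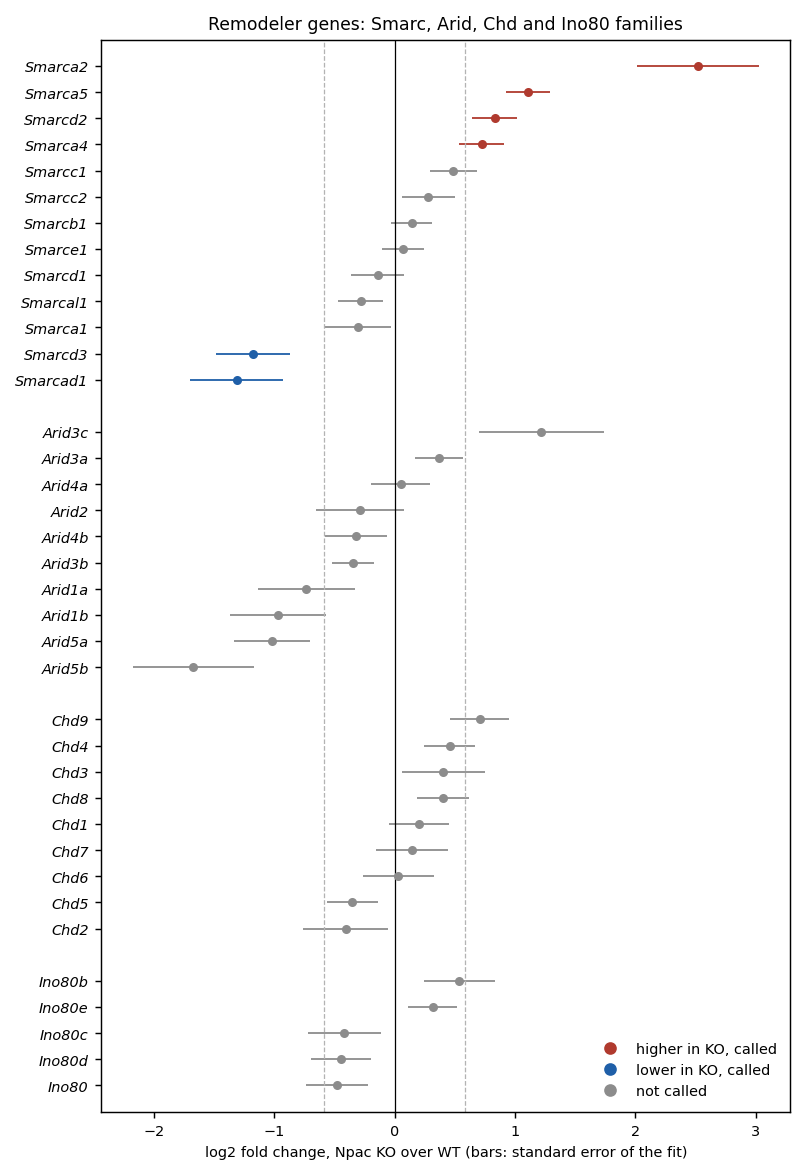
Log2 fold changes (Npac KO over WT, x axis) of the Smarc, Arid, Chd and Ino80 genes, with 1 point per gene, bars for the standard error of the edgeR fit and dashed lines at 1.5-fold. The called genes are all in the Smarc family, from Smarca2 at 2.52 to Smarcad1 at -1.31, and Arid5b at -1.67 was not called.

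Of the ISWI motors, Smarca5 rose. Smarca5 (Snf2h; chromosome 8 from 81425136 to 81466126), which spaces nucleosomes and is needed in the early embryo, had 3012 and 3106 reads in WT1 and WT2 against 6568 and 6664 in KO1 and KO2. The means were 187 ± 13.7 CPM in WT and 404 ± 26.5 CPM in KO cells (SD, n = 2 each), a log2 fold change of 1.11 ± 0.18 (SE, edgeR adjusted p = 0.00734), and it was called without each library in turn. Smarca1 (Snf2l), its paralog, had 326 and 280 reads in WT and 266 and 228 in KO cells, which overlap in CPM. Smarca5 made up 87.9% and 89.7% of the summed FPKM of the pair in WT cells and 95.1% and 95.8% in KO cells. Smarca5 lies on chromosome 8, and with chromosome medians removed its log2 fold change was 0.58 (adjusted p = 0.0590 by edgeR). The table also lists 6 processed pseudogenes with near-identical sequence, and summed with them Smarca5 had 3346 and 3384 reads in WT and 6947 and 7024 in KO cells.

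Smarcad1 (chromosome 6 from 65019567 to 65093045), a single-subunit remodeler known for DNA end resection and for keeping heterochromatin, had 4586 and 2182 reads in WT1 and WT2 against 1540 and 1247 in KO1 and KO2. Both KO libraries lay below both WT libraries, but the WT libraries stood further apart than WT2 and KO1. The means were 213 ± 124 CPM in WT and 85.6 ± 19.1 CPM in KO cells (SD, n = 2 each), and the log2 fold change was -1.31 ± 0.38 (SE, edgeR adjusted p = 0.0465). The size of the fall rested on WT1: without it the log2 fold change was -0.57, under the fold threshold, and without WT2 it was -1.82. Smarcad1 was also not called without KO2 (-1.09, adjusted p = 0.138 by edgeR).

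Among the deacetylases, Hdac1 rose and Hdac4 fell. Hdac1 (chromosome 4 from 129409897 to 129436506), a catalytic subunit of the NuRD, SIN3 and CoREST complexes, had 2657 and 2882 reads in WT1 and WT2 against 7726 and 7360 in KO1 and KO2. The means were 169 ± 6.38 CPM in WT and 461 ± 50.8 CPM in KO cells (SD, n = 2 each), a 2.72-fold difference, 1.44 ± 0.19 on the log2 scale (SE, edgeR adjusted p = 0.00337). The call held without each library in turn. Hdac2, the paralog that sits in the same complexes, had 4235 and 3956 reads in WT1 and WT2 against 2876 and 2949 in KO1 and KO2. Its KO libraries both lay below WT, but its log2 fold change of -0.50 ± 0.19 (SE, edgeR adjusted p = 0.0932) did not pass either threshold. In FPKM, Hdac2 stood above Hdac1 in both WT libraries (61.6 and 50.2 against 50.2 and 47.5) and below it in both KO libraries (41.2 and 37.4 against 144 and 121). Hdac1 made up 44.9% and 48.6% of the summed FPKM of the pair in WT1 and WT2 and 77.7% and 76.4% in KO1 and KO2. The sum itself was 112 and 97.7 FPKM in WT and 185 and 159 FPKM in KO cells. By mean FPKM, Hdac1 was the third of the 64 genes in WT cells and the first in KO cells.

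The table lists near-identical copies of Hdac1 elsewhere in the genome, among which the counting could have split its reads. The processed pseudogene Hdac1-ps (99.4% identical over 1444 bases) had 1338 and 1303 reads in WT1 and WT2 against 482 and 480 in KO1 and KO2, and Gm4864 (94.6% identical over 1469 bases) had 252 and 259 reads in WT and 11 and 10 in KO cells. These moved opposite to Hdac1. Whether reads of Hdac1 were assigned to the copies in some libraries was not tested, since it needs the reads. Summed with its 3 copies, Hdac1 had 4251 and 4448 reads in WT and 8225 and 7854 in KO cells, and the log2 fold change fell to 0.88 ± 0.19 (SE, edgeR adjusted p = 0.0161), which still passed both thresholds. With the copies counted as Hdac1, its part of the summed length-scaled reads of Hdac1 and Hdac2 was 56.6% and 59.4% in WT and 78.8% and 77.6% in KO cells. The order of Hdac1 and Hdac2 in WT cells therefore depended on how these reads were counted, and the higher share in KO cells did not.

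Hdac3, the catalytic subunit of the NCoR complex, was not called, with 1256 and 1759 reads in WT1 and WT2 against 1034 and 1080 in KO1 and KO2 (log2 fold change -0.50 ± 0.19 SE, edgeR adjusted p = 0.0925). Of the class IIa enzymes, which shuttle between nucleus and cytoplasm, Hdac4 fell. Hdac4 (chromosome 1 from 91856501 to 92123421) had 1118 and 1010 reads in WT and 614 and 633 in KO cells, a log2 fold change of -0.78 ± 0.20 (SE, edgeR adjusted p = 0.0309). It was not called without KO1 (adjusted p = 0.177) or KO2 (adjusted p = 0.266) by the same test. Hdac5, the most abundant of that class by FPKM, had 1753 and 1939 reads in WT and 1828 and 1935 in KO cells, and Hdac7 had 365 and 504 in WT and 389 and 394 in KO cells; both groups overlap. Hdac9 was the lowest of the 64 genes by mean FPKM (0.212), with 36 and 32 reads in WT and 57 and 84 in KO cells (log2 fold change 1.03 ± 0.43 SE, edgeR adjusted p = 0.128). Hdac11, the only class IV enzyme, had 162 and 281 reads in WT and 302 and 436 in KO cells (0.74 ± 0.29 SE, edgeR adjusted p = 0.110). Hdac6, the cytoplasmic tubulin deacetylase, Hdac8 and Hdac10 had log2 fold changes of -0.23, -0.31 and 0.12, each smaller than 1.5-fold.

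**Figure D2:**
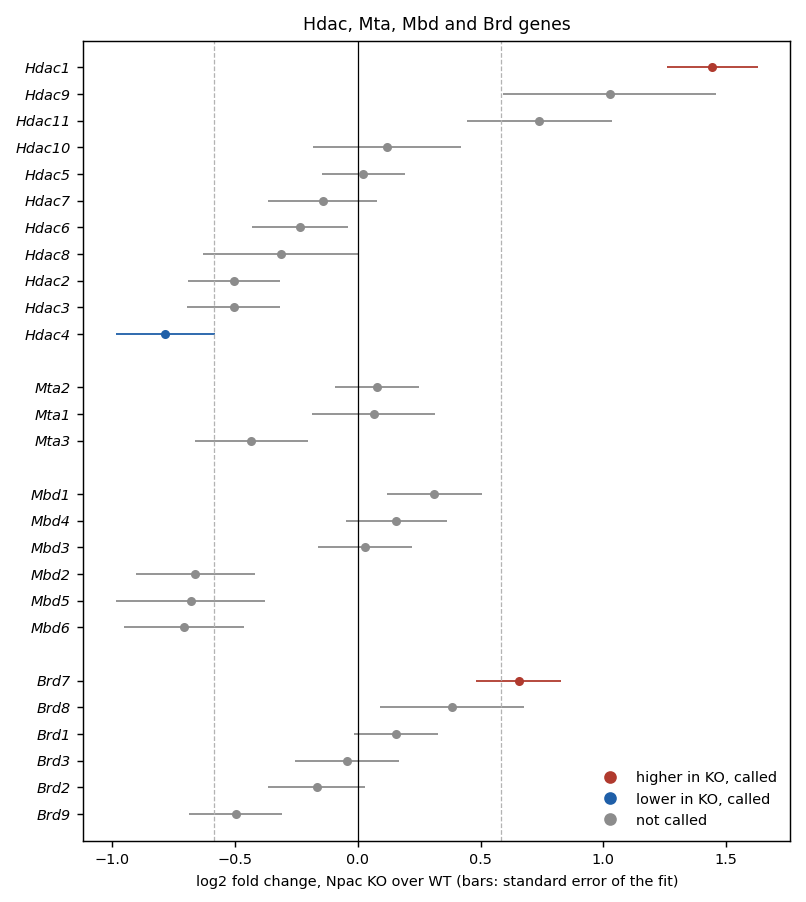
Log2 fold changes (Npac KO over WT, x axis) of Hdac, Mta, Mbd and Brd genes, with 1 point per gene, bars for the standard error of the edgeR fit and dashed lines at 1.5-fold. Hdac1 at 1.44 and Brd7 at 0.66 were called higher and Hdac4 at -0.78 lower in KO cells.

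Of the bromodomain genes, Brd7 rose. Brd7 (chromosome 8 from 89057667 to 89088822), a subunit of the PBAF form of the BAF complex, had 1241 and 1574 reads in WT1 and WT2 against 2085 and 2350 in KO1 and KO2. Its log2 fold change was 0.66 ± 0.17 (SE, edgeR adjusted p = 0.0339), and the groups did not overlap. Brd9, a paralog found in the non-canonical BAF complex, had 734 and 781 reads in WT and 501 and 580 in KO cells, which do not overlap either (-0.50 ± 0.19 SE, edgeR adjusted p = 0.0966). Brd7 made up 69.1% and 72.8% of the summed FPKM of the pair in WT and 84.7% and 84.3% in KO cells. Brd7 lies on chromosome 8, and its log2 fold change was 0.13 with chromosome medians removed (adjusted p = 0.627 by edgeR). It was under the fold threshold without WT1 (0.56) and over the p threshold without KO1 or KO2 (edgeR adjusted p = 0.259 and 0.249). Brd2 and Brd3, whose proteins carry paired bromodomains and bind acetylated histones at active genes, overlapped between the groups, with log2 fold changes of -0.17 ± 0.20 (SE) and -0.04 ± 0.21 (SE). Brd2 was the most abundant Brd gene, at 47.3 and 38.8 FPKM in WT and 41.9 and 34.6 in KO cells. Brd1, a scaffold of a histone acetyltransferase complex, and Brd8, a subunit of the TIP60 complex, had log2 fold changes of 0.15 ± 0.17 (SE) and 0.38 ± 0.29 (SE).

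**Figure D3:**
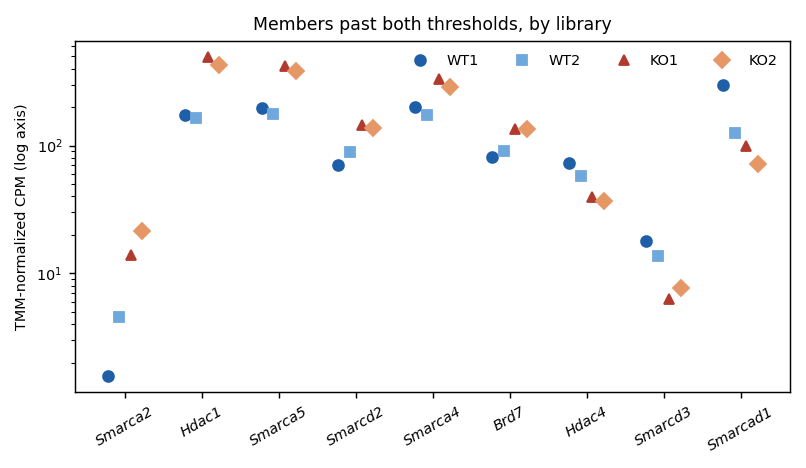
TMM-normalized CPM (log axis) of the 9 called genes in each library, with 1 symbol per library. In the 6 genes on the left both KO libraries lie above both WT libraries, in the 3 on the right both lie below, and the WT1 and WT2 symbols of Smarca2 and Smarcad1 stand well apart.

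The Arid genes encode DNA-binding proteins with an AT-rich interaction domain, and Arid1a, Arid1b and Arid2 are the subunits that define the BAF and PBAF forms. In the fit used here no Arid gene was called, but the family included the largest uncalled difference of the 64 genes. With replicate number added to that fit as a block, Arid5b, Arid5a, Arid1a, Arid1b and Arid3c were called. That block pairs WT and KO libraries that share only a number, and the share of all genes called with it is not given. Those calls therefore cannot be read as particular to these genes. Arid5b, a partner of the histone demethylase Phf2, had 5575 and 2195 reads in WT1 and WT2 against 1604 and 879 in KO1 and KO2. Its groups do not overlap, the log2 fold change was -1.67 ± 0.50 (SE) and the adjusted p was 0.0509 by edgeR, just over the threshold. It was called without WT1 (-0.73), WT2 (-2.25) or KO1 (-2.27), and not without KO2 (-1.24). Arid5a, which binds and stabilises mRNAs, had 240 and 259 reads in WT and 93 and 157 in KO cells (-1.02 ± 0.32 SE, edgeR adjusted p = 0.0557). Arid1b had 797 and 365 reads in WT and 310 and 300 in KO cells (-0.97 ± 0.40 SE, edgeR adjusted p = 0.117). Arid1a had the highest mean FPKM of the family over the 4 libraries together, but Arid5b stood above it in WT cells (24.2 against 21.5) and below it in KO cells (7.59 against 12.9). Arid1a had 5398 and 2511 reads in WT and 2813 and 2046 in KO cells, and the groups overlap. In both genes WT1 stood apart, and without WT1 the log2 fold changes were 0.03 for Arid1a and -0.19 for Arid1b, while without WT2 both were called, at -1.24 and -1.49. Arid1a held 88.2%, 88.3%, 90.9% and 88.2% of the summed FPKM of the pair in WT1, WT2, KO1 and KO2. Arid3c had only 17 and 47 reads in WT and 75 and 71 in KO cells (1.22 ± 0.52 SE, edgeR adjusted p = 0.129). It overlaps Il11ra1 in the table. The log2 fold changes of Arid2, Arid3a, Arid3b, Arid4a and Arid4b lay between -0.35 and 0.37.

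**Figure D4:**
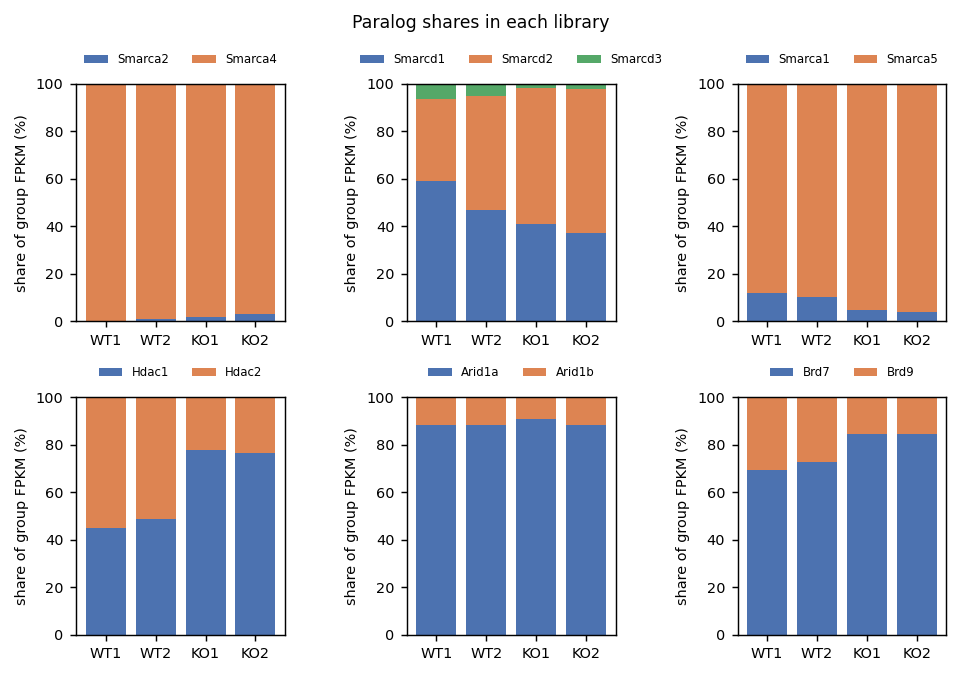
Share of each gene in the summed FPKM of its paralog group (percent, y axis) in each library, as stacked bars. Hdac1 goes from 44.9% and 48.6% in WT to 77.7% and 76.4% in KO cells, Smarcd2 and Brd7 also have larger shares in both KO libraries, and the Arid1a shares of the genotypes overlap.

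The Chd genes encode chromodomain remodelers. Chd4, the NuRD motor of ES cells, had the highest mean FPKM of the 64 genes in WT cells, close to that of Hdac2 (56.0 against 55.9). In WT2 alone Hdac2 stood above it (50.2 against 49.6). Chd4 had 62.5 and 49.6 FPKM in WT1 and WT2 against 86.3 and 67.1 in KO1 and KO2. These do not overlap, and the log2 fold change was 0.46 ± 0.21 (SE, edgeR adjusted p = 0.162). Among the NuRD motors it held 82.3% and 83.7% of the summed FPKM in WT and 86.6% and 86.4% in KO cells, and Chd3 and Chd5 held the rest. Chd9 had 1407 and 1006 reads in WT and 1972 and 2029 in KO cells (0.71 ± 0.24 SE, edgeR adjusted p = 0.0744). It lies on chromosome 8, and its log2 fold change was 0.18 with chromosome medians removed and 1.06, which was called, without WT1. Chd1, which binds H3K4-methylated histones and is known from open chromatin in ES cells, had 2315 and 1634 reads in WT and 2379 and 2226 in KO cells, which overlap. Chd2, Chd6 and Chd7 also overlapped between the groups, and Chd5 (-0.35 ± 0.21 SE) and Chd8 did not (0.40 ± 0.22 SE). Chd2 overlaps the noncoding RNA Chaserr in the table, which had 653 and 427 reads in WT and 194 and 178 in KO cells.

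The remaining NuRD subunits and the methyl-CpG binding family showed no called gene. Mbd3, the NuRD form of ES cells, had 1287 and 1442 reads in WT and 1483 and 1295 in KO cells, while Mbd2, which replaces it in a separate NuRD form and binds methylated CpG, had 449 and 393 in WT and 250 and 289 in KO cells. The Mbd2 groups do not overlap (-0.66 ± 0.24 SE, edgeR adjusted p = 0.0871). Mbd3 held 82.3% and 85.6% of the summed FPKM of the pair in WT and 90.6% and 87.9% in KO cells. Mbd6 had 1668 and 1219 reads in WT and 795 and 1013 in KO cells (-0.71 ± 0.24 SE, edgeR adjusted p = 0.0753). Its paralog Mbd5 had 253 and 206 in WT and 142 and 148 in KO cells (-0.68 ± 0.30 SE, edgeR adjusted p = 0.146). Both proteins are known from the PR-DUB deubiquitinase complex. Reads from the stretches that Mbd5 shares with overlapping genes cannot be told apart from theirs. Mbd1 and the DNA glycosylase Mbd4 had log2 fold changes of 0.31 and 0.16. Mta1 and Mta2, scaffolds of NuRD, overlapped between the groups (0.06 and 0.08), and Mta3 had 1411 and 1280 reads in WT and 1115 and 882 in KO cells (-0.43 ± 0.23 SE, edgeR adjusted p = 0.209).

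The 5 Ino80 genes lay within 1.5-fold of WT. Ino80, the motor of the complex that moves nucleosomes bearing the variant H2A.Z, had 1772 and 1223 reads in WT and 1092 and 1091 in KO cells. Both KO values were below WT in raw reads, but in CPM they overlap WT2 (70.0 against 70.3 and 63.0), and the log2 fold change was -0.48 ± 0.26 (SE). Ino80c and Ino80d had log2 fold changes of -0.42 and -0.45, and Ino80b and Ino80e of 0.54 and 0.32. Ino80d overlaps Ino80dos as listed, which had 125 and 96 reads in WT and 47 and 41 in KO cells. Ino80e overlaps Hirip3 and also Doc2a, which had 35 and 74 reads in WT and 163 and 170 in KO cells. Reads from the stretches that these genes share cannot be told apart.

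Across all families, 10 uncalled genes had groups that did not overlap and a fold change over 1.5 (15.6%, against 21.8% of all genes tested). Of these, 6 were lower in KO cells (Arid1b, Arid5a, Arid5b, Mbd2, Mbd5 and Mbd6) and 4 higher (Arid3c, Chd9, Hdac9 and Hdac11). Most of the 10 became called when some library was left out, and the share for like genes among all genes tested is not given. An unadjusted p under 0.05 was reached by 22 of the 64 genes (34.4%, against 37.5% of all genes tested). Levels ranged from a mean of 0.212 FPKM (Hdac9) to 90.7 FPKM (Hdac1), with a median of 8.91, and 59 of the genes had at least 100 reads in every library.

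The calls differed by chromosome, as they did over all genes tested. On chromosomes 8 and 11 lie 7 of the genes (Brd7, Chd9 and Smarca5 on 8, and Chd3, Hdac5, Smarcd2 and Smarce1 on 11), of which 3 were up-regulated and none down-regulated, with a median log2 fold change of 0.66. The background on these chromosomes was 26.5% up-regulated and 4.56% down-regulated. The other 57 genes held 3 up-regulated (Hdac1, Smarca2 and Smarca4) and 3 down-regulated genes, with a median of -0.14, where 8.63% of genes on the other autosomes were up-regulated and 11.6% down-regulated. Of the 57, 54 lie on these autosomes and 3 uncalled genes (Hdac6, Hdac8 and Smarca1) on the X chromosome. With chromosome medians removed, Hdac1 (1.47), Smarca2 (2.59) and Smarca4 (0.93) were still called higher and Hdac4 (-0.74) and Smarcd3 (-1.17) lower. Smarca5, Smarcd2, Brd7 and Smarcad1 were then no longer called. Why these chromosomes stood higher was not tested.

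The WT libraries differed more from each other than the KO libraries did. WT1 and WT2 were over 1.5-fold apart in 20 of the 64 genes, 17 of them higher in WT1, while KO1 and KO2 were in 6. Over all genes tested, 34.2% were so far apart in WT, 15.6% with WT1 the higher, and 18.3% in KO, against 31.3%, 26.6% and 9.38% of the 64 genes. The median absolute log2 difference was 0.36 for the 64 genes and 0.39 for all genes between the WT libraries, and 0.15 and 0.23 between the KO libraries. Of the 17 genes higher in WT1, 13 were longer than the median gene length of 7142.5 bases in the table. The largest differences were in Arid5b (1.54 on the log2 scale), Arid1b (1.32), Arid1a (1.30), Smarcad1 (1.27) and Chd2 (1.23), and Smarca2 (-1.51) was the most extreme in the other direction. Over the 64 genes, Spearman's rho between gene length and the WT1 minus WT2 difference was 0.48, and for KO1 minus KO2 it was 0.02. Neither these correlations nor the count of longer genes is given for all genes tested. They cannot be read as particular to the 64 genes. Without WT1, 12 of the 64 genes were up-regulated and 5 down-regulated, where 14.4% and 15% of all genes tested in that fit were. Without WT2 these counts were 8 and 17, against 18.7% and 17.7% of all genes. They were 3 and 2 without KO1 (4.4% and 4.26% of all genes) and 3 and 0 without KO2 (4.31% and 4.28%). Smarcc1 (0.63), Chd4 (0.60) and Hdac3 (-0.67) passed both thresholds without WT1, and Hdac2 (-0.65), Ino80 (-0.80) and Chd2 (-0.90) without WT2. The correlations are descriptions across genes that share the same libraries, and genes are not independent replicates. The part of gene length or RNA quality in the comparison of genotypes was not tested.

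**Figure D5:**
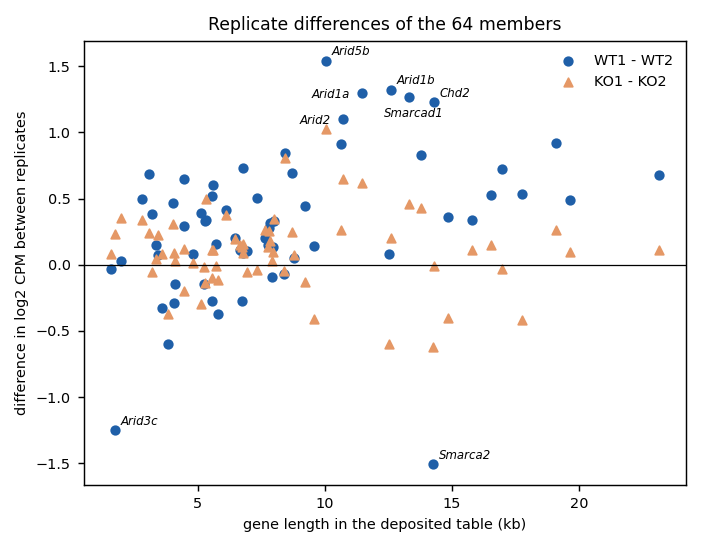
Difference in log2 CPM between the replicates of a genotype (y axis) against gene length (kilobases, x axis) for the 64 genes, circles for WT1 minus WT2 and triangles for KO1 minus KO2. The WT circles of long genes such as Arid5b, Arid1b and Smarcad1 lie above 1, and Smarca2 and Arid3c lie below -1.

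The other subunits of these complexes and related enzymes were read from a list of such genes, of which 122 genes were tested. Of these, 8 were up-regulated and 7 down-regulated (6.56% and 5.74%, against 11% and 10.7% of all genes tested). In BAF and PBAF, Actl6a, the actin-related subunit of proliferating cells, rose from 1376 and 1259 to 2695 and 2307 reads (log2 fold change 0.92 ± 0.21 SE, edgeR adjusted p = 0.0216). The reader subunits Dpf2 (-0.63) and Phf10 (-0.99) and the non-canonical BAF subunit Bicral (-1.33) fell, so 1 of 14 genes in that list was higher and 3 were lower. None of the 9 other ISWI subunits, 9 other NuRD subunits and 7 sirtuins was called. In the list of 25 INO80, SRCAP and TIP60 genes, Morf4l1, a chromodomain protein that binds methylated H3K36, rose from 1789 and 1519 to 5437 and 5507 reads (1.71 ± 0.21 SE, edgeR adjusted p = 0.0029), and Yy1 fell (-0.63). Among SIN3, CoREST, NCoR and MIER genes, Sin3b rose (0.81) and Mideas fell (-0.92), with 24 tested. Sin3b lies on chromosome 8, and its log2 fold change was 0.29 with chromosome medians removed (adjusted p = 0.323 by edgeR). Of 17 other bromodomain genes, Brpf3 (2.01) and the acetyltransferase Kat2a (1.01) rose, and the acetyltransferase Crebbp (-0.96) and Zmynd11 (-0.91) fell. Kat2a lies on chromosome 11, and with chromosome medians removed it was at 0.51 on the log2 scale and not called (adjusted p = 0.0791 by edgeR). Of 6 other acetyltransferase genes Kat7 (0.74) and Hat1 (1.18) rose, and of 11 other SNF2-type genes Hltf (1.04) rose. Kat7, also on chromosome 11, stood at 0.24 with chromosome medians removed (adjusted p = 0.444 by edgeR), and it was called in 1 of the 4 fits with a library left out, that without WT1. Of the 8 up-regulated and 7 down-regulated genes of these lists, 5 and 3 were still called with chromosome medians removed. Those that were not are Sin3b, Kat2a and Kat7 among the higher and Mideas, Dpf2, Phf10 and Yy1 among the lower. With limma on log2(FPKM + 1), Bicral, Phf10, Mideas, Crebbp and Zmynd11 were not called. With 1 library left out, the log2 fold change lay between -1.32 and -0.59 for Phf10 and between -1.23 and -0.55 for Mideas.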

How the data were processed

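RNA-seq of 4 E14 libraries (2 WT, 2 Npac KO) was analysed. The authors sequenced 150-bp paired-end reads and deposited raw read counts per gene and FPKM values made from the same counts. The submitters' processing notes name CASAVA, HISAT2 2.0.5, featureCounts 1.5.0-p3 and mm10; the use of strand and the annotation release are not given in the sources used here. Of 52073 gene IDs shared with GENCODE M21 (GRCm38), 2.83% had the same start and end, so gene coordinates are given as deposited and their build is unsettled. Promoter windows are from RefSeq (GRCm38.p6).

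Counts were compared with edgeR 4.0.16 in R 4.3.3 (TMM, filterByExpr, quasi-likelihood test, Benjamini-Hochberg over 18157 genes, adjusted p under 0.05 and fold change over 1.5, as in the study's methods). The total counts, 15850805 to 16965120 per library, set the precision; CPM, log2 fold changes and standard errors come from this fit. The edgeR, DESeq2 and limma fits were tested in their default settings on simulated counts with known fold changes. The other settings and steps had no such test. Alternatives used DESeq2 1.42.0, limma 3.58.1 on log2(FPKM + 1) and log2(FPKM + 0.1), other filters and normalizations, a replicate block, removal of chromosome medians and leaving out each library. The sum with processed pseudogenes, matched by blastn 2.17.0, was chosen after seeing the data. Tables, shares and figures were made in Python 3.11.15.

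The members and lists were chosen with earlier results of these data known. Named genes are those called, the most abundant of each family by mean FPKM, uncalled genes with non-overlapping groups and a fold change over 1.5, members of the paralog groups, and called genes of the partner list. The values of 1 member are not reported here. Other genes are named to account for each family, or because their reads overlap or copy those of a member.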

Additional observations from a re-analysis of the deposited data

How the results depend on the processing

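The 6 up-regulated members were also 6 with DESeq2, upper-quartile or median-of-ratios normalization, FPKM with limma, and pseudogenes summed with their parents. They were 10 at an unadjusted p, and 3 to 12 when 1 library was left out (12 without WT1, 3 without KO1 or KO2). The 3 down-regulated members were 6 by edgeR's likelihood ratio test, 8 with no filter on low counts, 8 at an unadjusted p, 0 with limma on log2(FPKM + 1) or log2(FPKM + 0.1), and 0 to 17 with 1 library left out (17 without WT2, 0 without KO2). Partner genes up-regulated (8) were 14 by the likelihood ratio test, 15 with no filter, 15 at an unadjusted p, 5 with chromosome medians removed, and 4 to 25 with 1 library left out. Those down-regulated (7) were 11 with no filter, 2 and 3 with limma at pseudocounts of 1 and 0.1, 4 with chromosome medians removed, and 0 to 23 with 1 library left out. The cause of these differences was not tested. WT1 with KO1 and WT2 with KO2 share only a number, and their deviations correlated at 0.308 over genes (0.52 over the 64 members). With the replicate block, 9 members were up- and 9 down-regulated, and 17 and 11 partner genes. Apart from the fits with a library left out, the share of all genes called is not given for these settings. A change in these counts therefore cannot be read as particular to the members or partner genes. Those called then include Arid5b (edgeR adjusted p = 2.5e-05), Arid5a, Arid1a, Arid1b and Arid3c. No called member changed direction. Uncalled members did: with chromosome medians removed, Chd3 (-0.10), Hdac5 (-0.48) and Smarce1 (-0.43), and with protein-coding genes only, Hdac5 (-0.0089) and Mbd3 (-0.0029). With 1 library left out the log2 fold changes that crossed 0 included Arid1a (-1.24 to 0.031), Arid2 (-0.74 to 0.33), Arid4a (-0.22 to 0.35), Arid4b (-0.64 to 0.059), Brd3 (-0.28 to 0.20), Brd8 (-0.0065 to 0.88), Chd1 (-0.11 to 0.56), Chd2 (-0.90 to 0.30), Chd3 (-0.059 to 0.86), Chd6 (-0.36 to 0.54), Chd7 (-0.22 to 0.59), Hdac5 (-0.022 to 0.074), Mbd3 (-0.17 to 0.21), Mbd4 (-0.0022 to 0.30), Mta1 (-0.24 to 0.42), Mta2 (-0.018 to 0.15), Smarcd1 (-0.36 to 0.086) and Smarce1 (-0.014 to 0.16). With 1 library left in a genotype, that library is assumed to vary like the others. Depth limits Arid3c, Arid5a, Hdac9, Smarca2 and Smarcd3 most, the members with fewer than 100 reads in some library.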
